A study of Drosophila melanogaster with 6 samples.

Results

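The genes described here encode subunits of respiratory complexes II to V and cytochrome c, the nuclear part of the mitochondrial electron transport chain beyond complex I. They were picked by symbol alone, as those starting with SdhA to SdhD, UQCR, COX and a digit, ATPsyn or Cyt-c, together with RFeSP, ox, levy and cype. This gave 48 of 17116 gene symbols, with 6 in complex II, 12 in complex III, 2 for cytochrome c, 13 in complex IV and 15 in complex V. RNA sequencing was done on midguts of Drosophila melanogaster females of the w1118 strain, a white-eyed stock labelled wild-type, on pools of 30 guts. The mated group held 3 libraries of 8-day-old females taken 3 days after mating, and the virgin group held 3 libraries of 8-day-old females. The question was how the female intestine differs after mating. Whether each pool was drawn from its own culture is not labelled, and p-values therefore reflect how these 6 libraries vary, which may be technical.

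Complex II, succinate dehydrogenase, oxidises succinate in the citric acid cycle and hands the electrons to ubiquinone. Complex III passes them from ubiquinone to cytochrome c, a small mobile haem protein, and complex IV, cytochrome c oxidase, passes them on to oxygen. Complex V, the ATP synthase, lets protons flow back across the inner mitochondrial membrane and makes ATP. Some subunits of complexes III, IV and V are encoded in the mitochondrial genome and are not part of the group. Flies also carry related copies of many nuclear subunit genes, and several such copies are known for expression in the testis.

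Gene counts summed to 25464204, 16293718 and 20480521 in mated and 29021297, 28794618 and 15902696 in virgin libraries. Mated 1 was the library that stood apart for these genes, and log2 fold changes of the named members are also given without it. Of the midgut markers, the enterocyte protease Jon65Aiii had 28924, 25668 and 28672 CPM (counts relative to the library total, with totals scaled by the TMM method) in mated and 14955, 12747 and 12337 CPM in virgin libraries. The enterocyte marker Mal-A1 went the other way, with 3128, 1822 and 2314 CPM in mated and 6611, 7219 and 5912 CPM in virgin libraries. Of the 9 enterocyte markers, 6 had positive and 3 had negative log2 fold changes of mated over virgin. The testis list of 8 genes had summed levels of 0 to 0.382 CPM in mated libraries and 0 CPM in all 3 virgin libraries. The germline gene osk had 0, 0.13 and 0 CPM in mated libraries and 0, 22.7 and 0 CPM in virgin libraries, and those of named members that moved by over 1.5 times without virgin 2 are given without it too. The part of ovary RNA in the levels below was not tested.

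The 48 members fell into 34 standard subunit genes and 14 related copies. All 34 standard genes were expressed, with mean levels between 51.8 and 1339 CPM. Of the 14 copies, 8 had 0 counts in all 6 libraries, which allows up to 0.0938 to 0.191 CPM depending on the library (3 counts, counting error only). UQCR-11L, a copy of a small complex III subunit gene, was the only copy to pass the filter on low counts. It had 3.34, 2.86 and 2.64 CPM in mated libraries and 2.89, 0.97 and 1.67 CPM in virgin libraries. The groups overlapped (log2 fold change 0.67 ± 0.51 (SE), adjusted p = 0.559 in edgeR's quasi-likelihood test). The value was 0.58 without mated 1 (adjusted p = 0.801) and 0.36 without virgin 2 (adjusted p = 0.761). COX4L came next, with 10 counts over the mated and 8 over the virgin libraries. Cyt-c-d, the cytochrome c gene known for its part in sperm maturation, had 6 counts over the mated and 0 over the virgin libraries, and on the opposite strand, where it overlaps CG31808, 109 counts over all 6. Thus 35 members, the 34 standard genes and UQCR-11L, were tested.

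Some copies lay next to their standard genes. COX5B and COX5BL (2L) were 122 bases apart, Cyt-c-d and Cyt-c-p (2L) 296 bases, and COX7A and COX7AL (3R) 2625 bases. In each pair the standard gene carried nearly all the counts: COX5B had 12644 counts in mated and 13960 in virgin libraries, while COX5BL had 3 in mated and 0 in virgin libraries. The 48 genes were spread over the genome, with 15 on 3R, 10 on 2R, 9 each on 2L and 3L, 4 on X and 1 on chromosome 4.

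**Figure D1:**
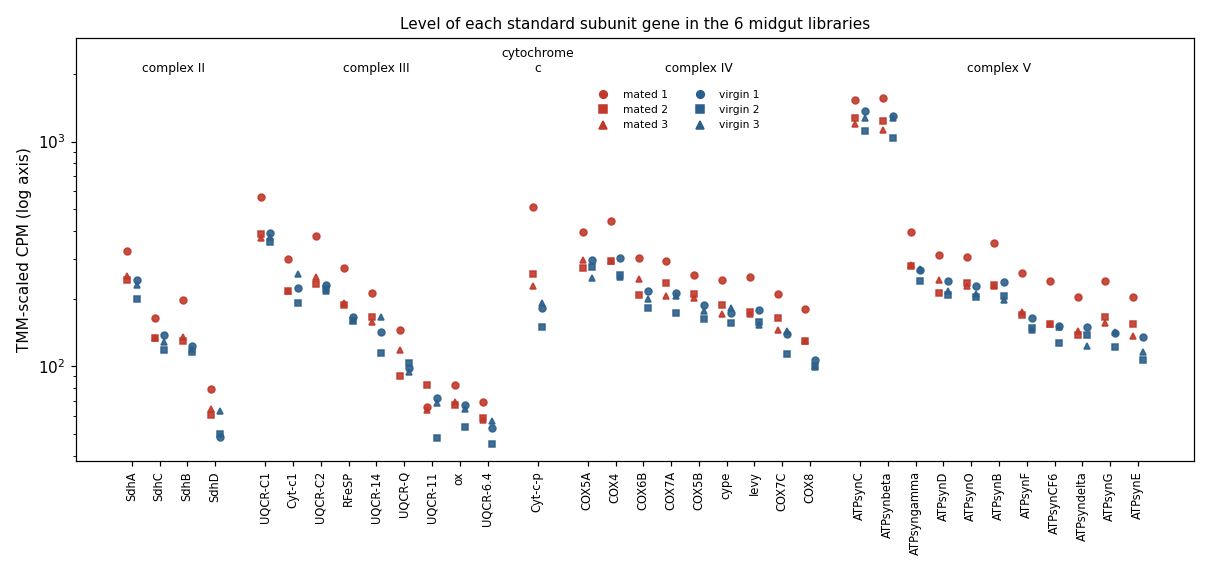
Level of each of the 34 standard subunit genes in each midgut library, in TMM-scaled CPM on a log axis, grouped by complex, with mated libraries in red to the left of virgin libraries in blue. ATPsynC and ATPsynbeta are the 2 highest genes in all libraries, and mated 1 (red circles) is the highest library for nearly all genes.

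Levels were compared between genes per kilobase of exon, as TMM-scaled CPM per kilobase (here RPKM). The c-ring subunit gene ATPsynC had the highest level, at 717 ± 95.3 RPKM in mated and 669 ± 67.0 RPKM in virgin libraries (SD, n = 3 each). ATPsynbeta, which encodes the catalytic subunit, followed with 547 ± 94.1 RPKM in mated and 503 ± 61.3 RPKM in virgin libraries. Both subunits are present in several copies per complex. Their virgin libraries did not overlap each other or those of COX5A, the third in order, at 405 ± 80.6 RPKM in mated and 343 ± 30.7 RPKM in virgin libraries. From COX5A down to UQCR-C2, each gene's virgin libraries overlapped those of the next in order, so neighbours there do not differ beyond their spread.

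By complex, the median level was highest for complex IV among the groups of several genes, at 319 RPKM in mated and 252 RPKM in virgin libraries. Complex V had medians of 269 RPKM in mated and 232 RPKM in virgin libraries, and complex III had 170 RPKM in mated and 145 RPKM in virgin libraries. Complex II was lowest, at 113 RPKM in mated and 89.7 RPKM in virgin libraries. The 9 complex IV genes ranged only from 154 to 343 RPKM in virgin libraries, whereas complex V spanned 35.8 RPKM for ATPsyndelta to 669 RPKM for ATPsynC. The ATPsyndelta value rests on an exonic length of 3817 bases over all its transcripts, the longest of the group.

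**Figure D2:**
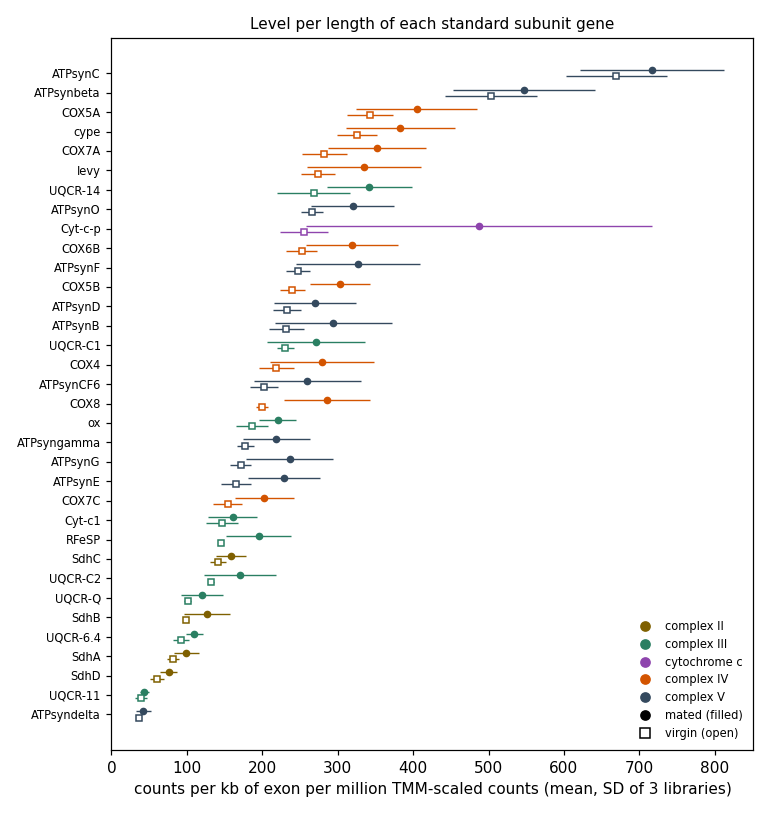
Level per length of the 34 standard genes, as mean and SD of 3 mated (filled circles, upper) and 3 virgin libraries (open squares, lower), coloured by complex. ATPsynC and ATPsynbeta stand above the rest, complex IV genes lie between 154 and 405 RPKM in both groups, and Cyt-c-p has the widest spread in mated libraries.

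Tested with edgeR's quasi-likelihood method, 0 of the 35 members reached the adjusted threshold of 0.05, which 4.1% of 8607 tested genes did (2.47% higher and 1.63% lower in mated midguts). Their adjusted p ran from 0.0893 for COX8 to 0.789 for ATPsynC. At an unadjusted p below 0.05, 10 members were higher and 0 lower in mated midguts, which is 28.6% of the members against 8.39% of all tested genes on the higher and 8.85% on the lower side. DESeq2 called 2 members, COX8 and Cyt-c-p, where it called 4.69% of genes higher, and 17 members were higher at an unadjusted p below 0.05 against 9.63% of genes. With no low-count filter 16 were, against 7.43% of genes. limma-voom called 0, where it called 2.56% of genes higher, and 8 members were higher there at an unadjusted p below 0.05 (share of all genes not taken). All 35 log2 fold changes of mated over virgin were positive, as were 45% of those of all tested genes, but 13 of the 35 were negative when scaled by library size alone. The members' median was 0.32, against -0.05 for all tested genes. For 16 members, or 45.7%, the 3 mated libraries all lay above the 3 virgin ones, as for 11.6% of all tested genes. These members vary together across libraries, so the counts do not stand for that many separate observations. In whole-gut RNA, more cells with these transcripts and more RNA per cell cannot be told apart.

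**Figure D3:**
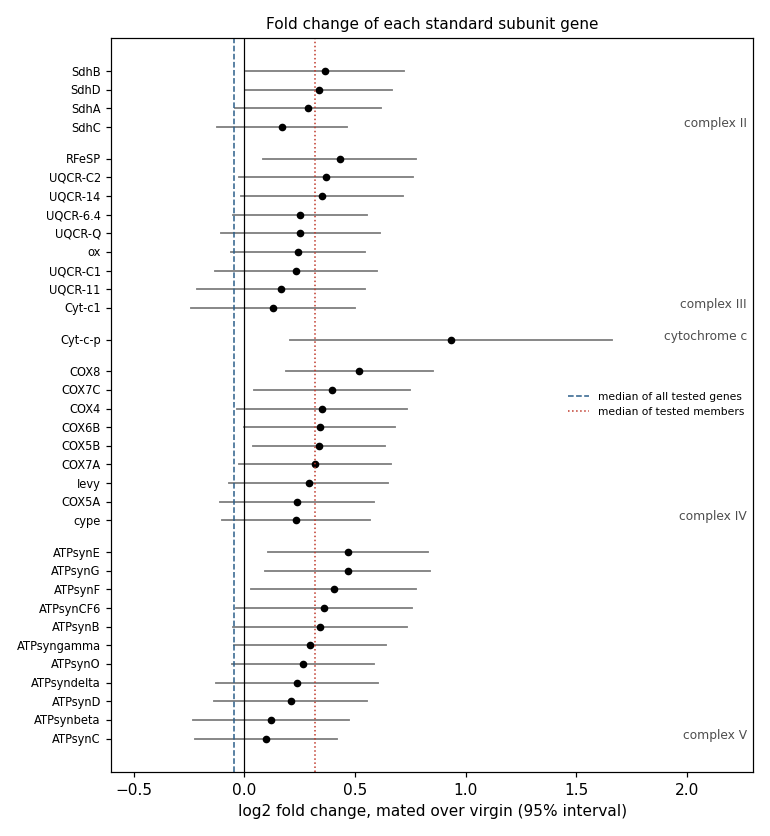
Log2 fold change of mated over virgin midguts for the 34 standard genes with 95% intervals from edgeR, grouped by complex, with the medians of the 35 tested members (0.32, dotted) and of all 8607 tested genes (-0.05, dashed). Cyt-c-p has the highest value and ATPsynC and ATPsynbeta the lowest in complex V, and under scaling by library size alone 13 of the 35 members turn negative.

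Scaling decided how far the members' median lay above 0, and hardly changed its distance from the median of all tested genes. Counts of members did change with scaling. With library size alone, 1 member was higher at an unadjusted p below 0.05 in edgeR's test, against 3.3% of all tested genes. On that scale 1 member had all mated above all virgin libraries, against 4.35%. TMM factors were 0.860 to 0.965 in mated and 1.04 to 1.13 in virgin libraries. Without them, the median log2 fold change of all tested genes was -0.30 in place of -0.05, and that of the members 0.06 in place of 0.32. The members' median minus that of all genes was 0.36 with TMM and 0.36 with library size alone. As a share of all gene counts the 48 members took 0.993%, 0.814% and 0.763% in mated libraries and 0.867%, 0.794% and 0.898% in virgin libraries. The mean shares were 0.857 ± 0.121% in mated and 0.853 ± 0.0534% in virgin libraries (SD, n = 3 each), a difference smaller than the spread in either group.

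Mated 1 held the highest level of the 6 libraries for 34 of the 35 tested members, as it did for 16.3% of all tested genes. Virgin 2 held the lowest for 25 of them. The summed TMM-scaled level of the 48 genes was 11554, 8436 and 8244 CPM in mated libraries and 8359, 7146 and 7960 CPM in virgin libraries. Mated 3 thus lay below virgin 1, and the groups overlapped. The median deviation of the tested members from their 6-library means (log2 CPM) was 0.45 in mated 1, -0.02 in mated 2 and -0.01 in mated 3, against -0.05 in virgin 1, -0.27 in virgin 2 and -0.14 in virgin 3. Across all tested genes these medians lay between -0.01 and 0.04. Without mated 1 the members' median log2 fold change was 0.15, 32 of 35 were positive, and 2 had an unadjusted p below 0.05 on the higher side, where 6.21% of all genes had. Without both mated 1 and virgin 2 the median was 0.08.

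The counts of members moved with the libraries used. Without virgin 2, 2 members were higher at an unadjusted p below 0.05 against 7.81% of all genes, and the same number without both virgin 2 and mated 1, against 5.71%. Without mated 2 there were 16 against 6.62%, without mated 3 15 against 7.37%, without virgin 1 11 against 10.5% and without virgin 3 8 against 8.72%. Members whose mated libraries all lay above the virgin ones numbered 16 without mated 1 (15% of all genes), 21 without mated 2 (15%) and 19 without mated 3 (15.6%). They numbered 26 without virgin 1 (19.7%), 16 without virgin 2 (16.9%), 18 without virgin 3 (17.2%) and 16 without virgin 2 and mated 1 (21.4%). With library size alone, 0 members passed the adjusted threshold (1.7% of genes were higher), 1 was higher at an unadjusted p below 0.05 (3.3%), and 0 passed when replicate number entered as a block (2.25%).

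**Figure D4:**
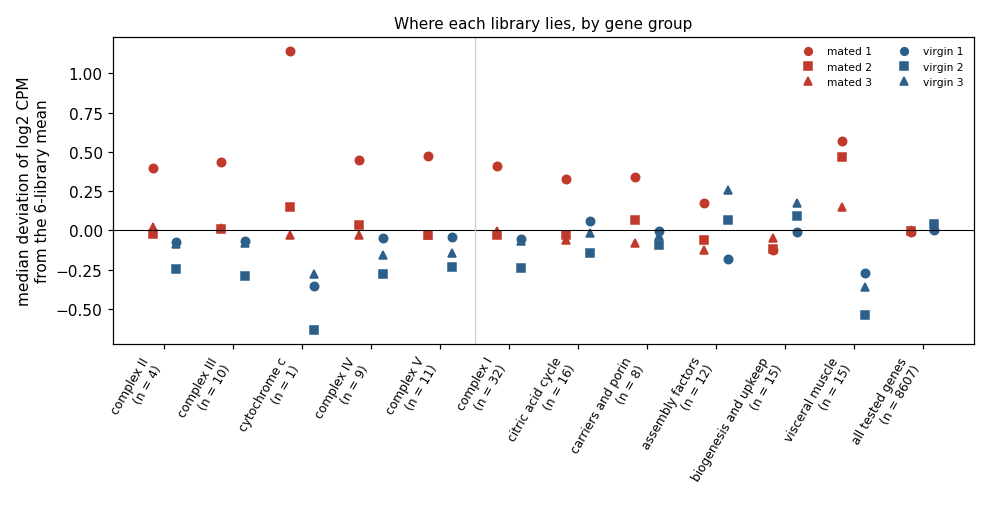
Median deviation of log2 CPM (TMM-scaled) from the 6-library mean, per library and gene group, with mated libraries in red left of virgin libraries in blue and the number of tested genes per group below. Mated 1 lies apart at 0.40 to 0.47 in complexes II to V, apart also in complex I, and mated 2 and 3 lie near 0 there.

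Complex II was the least expressed group and its 4 genes had similar values. SdhA (2R, 19391863 to 19395971), the flavoprotein that holds the active site, had 325, 242 and 252 CPM in mated libraries and 242, 199 and 230 CPM in virgin libraries. Its mated libraries all lay above the virgin ones, mated 2 by less than 1 CPM (log2 fold change 0.29 ± 0.15, adjusted p = 0.368). SdhB (2R, 6807626 to 6809172), the iron-sulphur subunit, had 197, 130 and 135 CPM in mated libraries and 123, 116 and 120 CPM in virgin libraries. These groups did not overlap either (log2 fold change 0.36 ± 0.16, adjusted p = 0.28). The membrane anchors differed in spread. SdhC (3R, 11208887 to 11209849) had 165, 133 and 134 CPM in mated libraries and 137, 118 and 128 CPM in virgin libraries, with virgin 1 above mated 2 and 3 (log2 fold change 0.17 ± 0.13, adjusted p = 0.577). SdhD (3R, 23759483 to 23760600) had 78.7, 60.3 and 64.2 CPM in mated libraries and 48.4, 49.7 and 63.1 CPM in virgin libraries. Virgin 3 lay above mated 2 (log2 fold change 0.34 ± 0.15, adjusted p = 0.287). Without mated 1 the log2 fold changes were 0.15 for SdhA (adjusted p = 0.766), 0.15 for SdhB (adjusted p = 0.719), 0.062 for SdhC (adjusted p = 0.909) and 0.22 for SdhD (adjusted p = 0.677) in edgeR's test. The complex had a median log2 fold change of 0.31, which was 0.15 without mated 1 and 0.05 with library size as the only scaling.

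Complex III had a median log2 fold change of 0.25, which was 0.16 without mated 1 and -0.01 with library size as the only scaling. RFeSP (2L, 1612429 to 1614160), the Rieske iron-sulphur protein that takes the electron from ubiquinol, had 274, 188 and 192 CPM in mated libraries and 165, 160 and 161 CPM in virgin libraries. The virgin libraries were within 6 CPM of each other and below all mated ones (log2 fold change 0.43 ± 0.16, adjusted p = 0.186). The log2 fold change of RFeSP was 0.23 without mated 1 (adjusted p = 0.501). The haem protein Cyt-c1, the next carrier in the chain, had 302, 216 and 215 CPM in mated libraries and 223, 192 and 256 CPM in virgin libraries. There mated 2 and 3 lay below virgin 1 and virgin 3 (log2 fold change 0.13 ± 0.17, adjusted p = 0.75), and the value was -0.05 without mated 1 and 0.04 without virgin 2.

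The core protein gene UQCR-C1 (3R, 14890231 to 14892387), the most abundant of complex III in CPM, had 566, 388 and 374 CPM in mated libraries and 393, 358 and 378 CPM in virgin libraries. Only mated 1 lay above all virgin libraries (log2 fold change 0.23 ± 0.17, adjusted p = 0.531), and the value was 0.019 without mated 1. The small subunit gene UQCR-14 had 212, 166 and 158 CPM in mated libraries and 142, 114 and 165 CPM in virgin libraries, and the groups overlapped (log2 fold change 0.35 ± 0.17, adjusted p = 0.317). Its log2 fold change was 0.21 without mated 1 (adjusted p = 0.703) and 0.23 without virgin 2 (adjusted p = 0.574). UQCR-11, named here after its values were seen, was the 1 tested member not highest in mated 1. It had 65.6, 82.3 and 63.6 CPM in mated libraries and 72.0, 47.7 and 68.7 CPM in virgin libraries (log2 fold change 0.17 ± 0.17, adjusted p = 0.676). That value was 0.22 without mated 1 and 0.01 without virgin 2.

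With all 6 libraries, cytochrome c had the largest log2 fold change of the 35 tested members and the largest SE of the 34 standard genes. Cyt-c-p (2L, 16719932 to 16722644), the cytochrome c gene used in most tissues, had 511, 257 and 227 CPM in mated libraries and 181, 149 and 191 CPM in virgin libraries. The groups did not overlap, and mated 1 stood far above the other mated libraries. The log2 fold change was 0.93 ± 0.31, a 1.91-fold difference with a 95% interval of 1.16 to 3.16, and did not pass (adjusted p = 0.182). DESeq2 gave 0.96 and did pass (adjusted p = 0.00374). Over the settings other than DESeq2, the adjusted p ran from 0.0769 without mated 3 to 0.388 without virgin 2. Without mated 1 the log2 fold change was 0.48 (adjusted p = 0.154).

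The ratio of Cyt-c-p to the other members does not depend on scaling. Per 100 counts of the other 47 members, Cyt-c-p had 4.63, 3.14 and 2.83 counts in mated libraries and 2.21, 2.13 and 2.45 counts in virgin libraries. All mated libraries lay above all virgin libraries in this ratio. It was examined because Cyt-c-p stood out, and no test was made of it.

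Complex IV genes had a median log2 fold change of 0.34, which was 0.17 without mated 1 and 0.08 with library size as the only scaling. COX8 (3L, 21538859 to 21539447), a small membrane subunit, had the smallest p of all members. It had 180, 129 and 130 CPM in mated libraries and 107, 100 and 99.2 CPM in virgin libraries. The groups lay well apart (log2 fold change 0.52 ± 0.15, a 1.43-fold difference with a 95% interval of 1.14 to 1.8, adjusted p = 0.0893). As CPM of library size alone, with no further scaling, COX8 had 155, 124 and 120 CPM in mated libraries and 111, 111 and 112 CPM in virgin libraries. It was the only member whose groups did not overlap on that scale, where 4.35% of all tested genes had mated libraries above all virgin ones. DESeq2 called it (adjusted p = 0.02), while its adjusted p ran from 0.063 to 0.354 over the other settings. Without mated 1 its log2 fold change was 0.34.

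COX5B (2L, 6557800 to 6559308) had 254, 209 and 200 CPM in mated libraries and 186, 162 and 176 CPM in virgin libraries, also without overlap (log2 fold change 0.34 ± 0.14, adjusted p = 0.228, and 0.23 without mated 1). COX4, the complex IV gene with the most counts, had 441, 295 and 294 CPM in mated libraries and 302, 255 and 251 CPM in virgin libraries, with mated 2 and 3 below virgin 1 (log2 fold change 0.35 ± 0.17, adjusted p = 0.339). The COX4 value was 0.13 without mated 1 (adjusted p = 0.790). The lowest value of the complex was that of cype, the Drosophila COX6C gene, at 242, 188 and 170 CPM in mated libraries and 173, 155 and 182 CPM in virgin libraries (log2 fold change 0.23 ± 0.15, adjusted p = 0.49, and 0.073 without mated 1). The other 5, COX5A, COX6B, COX7A, COX7C and levy (COX6A), had log2 fold changes between 0.24 and 0.40, or 0.067 to 0.24 without mated 1, and of these only COX7C had groups that did not overlap.

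Complex V held both the most abundant genes and the lowest log2 fold changes of the group, with a median of 0.30, which was 0.12 without mated 1 and 0.035 with library size as the only scaling. ATPsynE (3R, 14326947 to 14327735), a membrane subunit, had 203, 155 and 136 CPM in mated libraries and 134, 106 and 116 CPM in virgin libraries. The groups were apart by 2 CPM (log2 fold change 0.47 ± 0.16, adjusted p = 0.163). ATPsynG (2L, 10975522 to 10976399), another membrane subunit, had 239, 165 and 156 CPM in mated libraries and 141, 122 and 142 CPM in virgin libraries, without overlap (log2 fold change 0.47 ± 0.17, adjusted p = 0.18). Without mated 1 the log2 fold change was 0.29 for ATPsynE (adjusted p = 0.461) and 0.25 for ATPsynG (adjusted p = 0.501). ATPsynF, also a membrane subunit, had a log2 fold change of 0.40 ± 0.17 (adjusted p = 0.248), or 0.18 without mated 1.

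ATPsynC (3R, 31216145 to 31219630) had 1539, 1280 and 1198 CPM in mated libraries and 1362, 1115 and 1275 CPM in virgin libraries. ATPsynbeta (chromosome 4, 1031484 to 1034917) had 1558, 1229 and 1129 CPM in mated libraries and 1301, 1033 and 1268 CPM in virgin libraries. In both genes mated 3 lay below virgin 1 and virgin 3. The fold of ATPsynC was 1.07 with a 95% interval of 0.857 to 1.34 (adjusted p = 0.789), and that of ATPsynbeta 1.09 with 0.853 to 1.39 (adjusted p = 0.756). The log2 fold change of ATPsynC, 0.10, was -0.01 without mated 1 and 0.031 without virgin 2, and that of ATPsynbeta, 0.12, was -0.02 and 0.032. The 6 stalk genes ATPsyngamma, ATPsyndelta, ATPsynO, ATPsynB, ATPsynCF6 and ATPsynD had log2 fold changes between 0.21 and 0.36, or 0.036 to 0.12 without mated 1, and 3 of them, ATPsyngamma, ATPsynO and ATPsynCF6, had groups that did not overlap.

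Set against the other 9 standard complex V genes, which takes scaling out, ATPsynbeta had 0.62, 0.708 and 0.647 counts per count of those genes in mated libraries and 0.761, 0.690 and 0.808 in virgin libraries. For ATPsynC the ratios were 0.613, 0.737 and 0.687 in mated libraries and 0.797, 0.745 and 0.812 in virgin libraries. The ATPsynC ratio was lower in all mated than in all virgin libraries, and that of ATPsynbeta overlapped. These ratios were chosen after the values were seen and were not tested. The remaining nuclear subunits of complex V outside the symbol rule, blw (alpha, catalytic part) and sun (epsilon), had log2 fold changes of 0.20 ± 0.17 and 0.29 ± 0.15 and did not pass (adjusted p of 0.593 and 0.355). With mated 1 left out, blw had 0.0044 and sun 0.20.

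**Figure D5:**
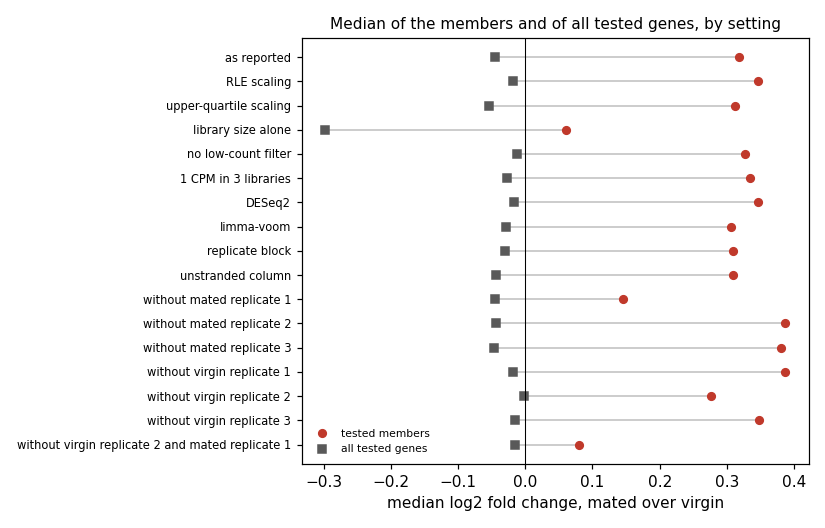
Median log2 fold change of mated over virgin for the tested members (red circles) and for all tested genes (grey squares), by setting. The members lie to the right of all genes in every setting, from 0.06 with library size alone to 0.39 without virgin replicate 1, and close to 0 without virgin replicate 2 and mated replicate 1.

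Neighbouring mitochondrial pathways were read from lists. Of 32 tested complex I genes (symbols starting with ND-), 0 passed in edgeR and 31 had positive values, with a median of 0.27, or 0.11 without mated 1. ND-B17 had the smallest p, at 85.7, 67.0 and 65.8 CPM in mated libraries and 56.9, 53.0 and 53.7 CPM in virgin libraries (log2 fold change 0.42 ± 0.14, adjusted p = 0.137), and ND-MWFE came next (0.43 ± 0.14, adjusted p = 0.14). Complex I shared the order of libraries, with a median deviation of 0.41 in mated 1, -0.03 in mated 2 and -0.01 in mated 3. Of 16 citric acid cycle genes, 0 passed and the median was 0.09, or 0.0069 without mated 1. Nc73EF, a subunit of 2-oxoglutarate dehydrogenase, had 596, 346 and 366 CPM in mated libraries and 303, 206 and 273 CPM in virgin libraries (log2 fold change 0.74 ± 0.23, adjusted p = 0.122). The citrate synthase kdn had 1127, 724 and 769 CPM in mated libraries and 603, 457 and 704 CPM in virgin libraries (0.57 ± 0.20, adjusted p = 0.179). Without mated 1 these values were 0.45 for Nc73EF and 0.35 for kdn.

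Carriers, assembly factors and upkeep genes were read in the same way. Of 8 carrier and porin genes 0 passed, with a median of 0.15, or 0.10 without mated 1. Among them sesB, the ADP/ATP carrier that exchanges the product of complex V, had 1778, 1355 and 1236 CPM in mated libraries and 1302, 905 and 1286 CPM in virgin libraries (log2 fold change 0.32 ± 0.18, adjusted p = 0.415). The phosphate carrier Mpcp1 was low, at 11.4, 6.36 and 4.17 CPM in mated libraries and 3.95, 5.22 and 1.90 CPM in virgin libraries, with overlap (0.98 ± 0.45, adjusted p = 0.294). The phosphate carrier Mpcp2, of the same list, had 1017, 788 and 760 CPM in mated libraries and 845, 763 and 741 CPM in virgin libraries (0.13 ± 0.15, adjusted p = 0.721). Without mated 1 the log2 fold changes were 0.16 for sesB, 0.50 for Mpcp1 and -0.016 for Mpcp2, and without virgin 2 that of sesB was 0.18. Of 12 assembly factors for complexes II to V, 0 passed, and 5 were positive. Scox, which delivers copper to complex IV, had 19.6, 13.9 and 18.4 CPM in mated libraries and 18.6, 25.2 and 28.0 CPM in virgin libraries (log2 fold change -0.46 ± 0.20, adjusted p = 0.265). Of 15 genes of mitochondrial biogenesis and upkeep 0 passed and 12 were negative, with a median of -0.11. There the transcription factor ewg, the fly relative of NRF-1, had -0.45 ± 0.16 (adjusted p = 0.171) and the fusion protein Marf -0.34 ± 0.13 (adjusted p = 0.201). At an unadjusted p below 0.05, the counts were 6 of 32 complex I genes, 2 of 16 citric acid cycle genes and 0 of 8 carriers on the higher side, and 1 of 12 assembly factors and 4 of 15 upkeep genes on the lower side. As shares these were 18.8%, 12.5% and 0%, against 8.39% of all tested genes on the higher side, and 8.33% and 26.7%, against 8.85% on the lower side. The 4 upkeep genes were ewg, Marf, mtRNApol and mtSSB, with log2 fold changes of -0.45, -0.34, -0.49 and -0.69. Without virgin 2 these were -0.52, -0.32, -0.26 and -0.47, and without mated 1 -0.35, -0.33, -0.57 and -0.76. Scox, the 1 assembly factor, had -0.41 without virgin 2 and -0.57 without mated 1.

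Visceral muscle gave markers that moved with the groups. Of 15 muscle genes, 12 were higher in mated midguts in edgeR's test (2.47% of all tested genes were) and 0 were lower. The list was chosen with earlier results of these data known, so this count is not independent support. Act57B, a muscle actin, had a log2 fold change of 1.45 ± 0.20 (adjusted p = 0.00195). The summed muscle level was 5335, 4757 and 3786 CPM in mated libraries and 2904, 2349 and 2635 CPM in virgin libraries, and no marker was at 0. Without mated 1, 7 of the 15 passed, without virgin 2, 6 did, and without both, 4 did. The median deviation of the muscle list was 0.57 in mated 1, 0.46 in mated 2 and 0.15 in mated 3, and -0.27, -0.54 and -0.36 in virgin 1, 2 and 3. For the 35 tested members it was 0.45, -0.02 and -0.01 in mated 1, 2 and 3, and -0.05, -0.27 and -0.14 in virgin 1, 2 and 3. The part of muscle RNA in the levels of the respiratory genes was not tested. The summed enterocyte markers had 95007, 75618 and 83102 CPM in mated libraries and 71509, 67552 and 59461 CPM in virgin libraries, with 2 of 9 genes higher and 1 lower in edgeR's test. Of the 6 progenitor markers 0 passed, with 0 below an unadjusted p of 0.05. Of 8 enteroendocrine markers 1, CCHa2, was lower (log2 fold change -0.72, adjusted p = 0.0424, but 0.139 without mated 1). The list was mixed, with 4 positive and 4 negative log2 fold changes. At an unadjusted p below 0.05 in edgeR's test, NPF, AstA and Dh31 were higher (37.5%, against 8.39% of all tested genes). On the lower side 1 marker was (12.5%, against 8.85%). Of 4 tested ovary or fat body markers 0 passed.

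Overlapping genes bear on some counts. By the annotation, 15 of the 34 standard genes share exon sequence with a gene on the opposite strand, and the strand-specific column keeps the strands apart. In the unstranded column UQCR-14, whose exons overlap CG32576, had 0 counts in place of 21131. SdhB kept 87.7% and ox 90.7% of their counts there. COX7C had the largest opposite-strand share of the standard genes, with 8.59% of its reads on the other strand, where oys overlaps it. Exons of COX6B, ATPsynC and UQCR-Q overlap another gene on the same strand, and their counts hold only reads given to 1 gene.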

How the data were processed

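Per the labels' protocols, TRIzol was used for the RNA and a stranded TruSeq mRNA kit for the libraries. The submitters' processing notes name CASAVA 1.8.4, STAR, DESeq2 1.42.0 and build dm6, with no role or order. What the authors deposited is a raw count of reads for each gene and strand setting, laid out as STAR writes it. Counts of the reverse strand were taken, since only 1.86% to 2.32% of stranded counts were on the forward one. The 4 rows that name no gene entered neither library sizes nor tests. Unmapped reads made up 5.47% to 12.8% of each library, the most in mated 1. Reads at several positions made up 7.67%, 5.67% and 6.91% of mated 1, 2 and 3 and 4.31%, 4.98% and 4.89% of virgin 1, 2 and 3. These groups did not overlap, and the bearing of this on the levels was not tested.

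Counts were fitted on the whole table with edgeR 4.0.16 in R 4.3.3 (filterByExpr, leaving 8607 genes and 35 of 48 members; TMM; glmQLFit with robust dispersion; two-sided glmQLFTest on a model with the group alone), with Benjamini-Hochberg adjustment over all tested genes and a threshold of 0.05. Log2 fold changes are mated over virgin, with standard errors from the F statistic. The common biological coefficient of variation was 0.291. Levels are TMM-scaled CPM; RPKM divides them by the exonic length of all transcripts in the Ensembl annotation with dm6 coordinates, in which all 48 members were found. Older symbols in the lists were resolved through RefSeq synonyms. The pipeline was tested on simulated data. Libraries of 1 group differed by more than sampling noise (chi-square per degree of freedom at least 23.9).

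The members and lists were chosen with earlier results of these data known. The text gives, per complex, the member with the highest CPM, the 2 smallest p, the lowest log2 fold change, all Sdh genes and both cytochrome c genes, the 2 copies with most counts, and up to 2 genes per related list. ATPsynbeta, UQCR-11, ATPsynF, COX7C, Mpcp2, mtRNApol, mtSSB and the within-complex ratios were added after their values were seen. Other settings tried were scaling by RLE, upper quartile or library size, 2 other filters, DESeq2, limma-voom 3.58.1, the replicate block, the unstranded column, and libraries left out. No sequences are shown.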

Additional observations from a re-analysis of the deposited data

How the results depend on the processing

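In edgeR, 0 of the tested members passed under the scalings, filters, block, count column and left-out libraries tried, and 0 passed in limma-voom, which was run once with TMM and all libraries. DESeq2 called 2, Cyt-c-p (log2 fold change 0.96) and COX8 (0.55), with 17 higher at an unadjusted p below 0.05 (9.63% of all genes). Genes passing over the whole table numbered 353, or 872 with library size alone, 629 with DESeq2, 169 to 308 without 1 library, and 191 without virgin 2 and mated 1. Members higher at an unadjusted p below 0.05 numbered 10, or 1 with library size alone, 16 with no low-count filter (7.43% of all genes), and 2 to 16 without 1 library: 2 without mated 1 or without virgin 2, and 2 without both virgin 2 and mated 1. Members with all mated above all virgin libraries numbered 16, or 1 with library size alone and 16 to 26 without 1 library, the most without virgin 1.

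Scaled by library size alone, the medians were 0.060 for all members, 0.050 for complex II, -0.0084 for complex III, 0.080 for complex IV and 0.035 for complex V, and SdhC (-0.087), UQCR-C1 (-0.030), Cyt-c1 (-0.14), cype (-0.029) and ATPsynC (-0.16) turned negative. Without virgin 2 and mated 1 the medians were 0.079 for all members, 0.10 for complex II, 0.38 for cytochrome c, 0.093 for complex IV and 0.065 for complex V, and UQCR-C1 (-0.016), Cyt-c1 (-0.15) and ATPsynC (-0.088) were negative. Leaving out 1 library gave 0.15 to 0.39 for all members, 0.15 to 0.39 for complex II, 0.16 to 0.36 for complex III, 0.48 to 1.15 for cytochrome c, 0.17 to 0.42 for complex IV, 0.12 to 0.39 for complex V, 0.02 to 0.34 for UQCR-C1, -0.05 to 0.26 for Cyt-c1 and -0.01 to 0.20 for ATPsynC, with the lowest values without mated 1. The cause was not tested.

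With the replicate block 0 members passed and the median of all members was 0.31. Deviations of libraries sharing a replicate number had correlations of -0.16, -0.05 and -0.03, so the numbers were not taken as pairs. The summed level of the members was, however, highest in replicate 1 of both groups (11554 CPM in mated 1 and 8359 CPM in virgin 1). With the block the SE fell for every standard gene named by rule except SdhD, where it was 0.16 in place of 0.15. For Cyt-c-p it was 0.23 in place of 0.31, and for COX4 0.13 in place of 0.17. Members higher at an unadjusted p below 0.05 in edgeR's test numbered 12 in place of 10, and the share of all genes was not taken there. The block gave 290 genes over the whole table. UQCR-14 has no value in the unstranded column.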
